A study of Mus musculus with 26 samples.

Results

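The genes of the voltage-gated sodium and calcium channels were taken as those whose symbol on the array began with Cacn, or with Scn followed by a number. Among the probe sets annotated to 1 symbol, a gene was read by the brightest, judged by the average of all 26 arrays. This gave 35 genes of 18194 on the arrays, 11 of sodium channels and 24 of calcium channels, with 85 probe sets in all. Of these, 31 passed the filter on low values (a mean log2 level of at least 4.33) and were tested among 14941 genes.

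The arrays came from dissected entorhinal cortex and hippocampus of aged mice, either APP transgenic (carrying amyloid precursor protein, an Alzheimer's disease model) or non-transgenic. Lentivirus had been given into the entorhinal cortex, and tissue was collected 4 weeks after infection. In each region 4 arrays were from APP transgenic mice given virus for BDNF (brain-derived neurotrophic factor, a secreted growth factor of neurons) and 4 from APP transgenic mice given virus for the green fluorescent protein GFP. A further 2 were from non-transgenic mice given GFP virus and 3 from non-transgenic mice with a sham lesion, so that no group of non-transgenic mice received BDNF and no transgenic group had the sham. Neither the strain, the age in months nor the promoter of the transgene is given in the sources used here. Levels are log2 values of whole tissue, in which fewer cells of a type and less RNA per cell cannot be told apart.

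Voltage-gated sodium channels open on depolarization and carry the upstroke of the action potential. Each has 1 pore-forming alpha subunit, joined by small beta subunits that set its gating and place it in the membrane. Voltage-gated calcium channels let calcium in at the same moment and so couple the action potential to transmitter release, dendritic signalling and gene expression. High-voltage-activated calcium channels (P/Q, N, R and L classes) combine a pore with an extracellular α2δ subunit and a cytoplasmic beta subunit, whereas the low-voltage-activated T class opens near rest and supports burst firing. Most gamma subunits of the brain are better known as companions of AMPA-type glutamate receptors, whose trafficking and gating they control.

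Most markers of the regions differed in the direction of their dissection. All 4 dentate granule cell markers (Prox1, C1ql2, Dsp and Lct) were lower in entorhinal cortex, with a median log2 difference of −3.44. Of 4 hippocampal pyramidal cell markers 3 were lower and 1, Wfs1, was higher (0.78). Of 5 cortical markers 4 were higher and 1, Fezf2, was lower (−0.46), with a median of 0.49. Among 4 markers of striatum and thalamus neurons, Drd1 (1.31) and Tcf7l2 (0.61) were higher, and Ppp1r1b and Calb2 were lower. The mean over 7 oligodendrocyte markers lay between 7.76 and 9.57 on the entorhinal arrays and between 10.01 and 10.74 on the hippocampal arrays, and all 7 were lower in entorhinal cortex (median −1.46). The 4 markers of excitatory neurons were also all lower there (median −0.66). Entorhinal transgenic BDNF array 3 and entorhinal non-transgenic GFP array 2 had the lowest oligodendrocyte means, 7.76 and 8.03, against 8.68 to 9.57 on the other entorhinal arrays. Hippocampal sham array 1 had a choroid plexus marker mean of 9.28, against 6.02 to 6.44 on the other hippocampal arrays. Xist, which marks female tissue, was high on all 10 non-transgenic arrays and on 2 of 4 arrays in each transgenic group.

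The main difference among the channel genes was between the regions. Of 31 genes tested, 9 were higher and 11 were lower in entorhinal cortex than in hippocampus at an adjusted p under 0.05 (limma, 13 and 13 arrays, the differences within the 4 kinds of group averaged with equal weight). Over all genes tested, 51.8% were called, 20.6% as higher and 31.3% as lower. The T-type calcium channel Cacna1h and the sodium channel beta subunit Scn4b had the largest falls, −1.47 ± 0.06 and −1.01 ± 0.20 (log2 ± SE; that of Scn4b turned direction with the oligodendrocyte markers as a covariate), and the α2δ subunit Cacna2d2 and the N-type calcium channel Cacna1b the largest rises, 0.73 ± 0.06 and 0.69 ± 0.09. The median size of the difference without its sign was 0.34 over the channel genes and 0.14 over all genes. These sets were not matched for level, and the processing compresses the differences of dim probe sets. In 6 of the 31 genes no entorhinal array overlapped a hippocampal one, and this held for 10.6% of all genes. The labels do not say whether the arrays of the regions came from the same mice, and the standard errors treat all 26 arrays as separate.

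**Figure D1:**
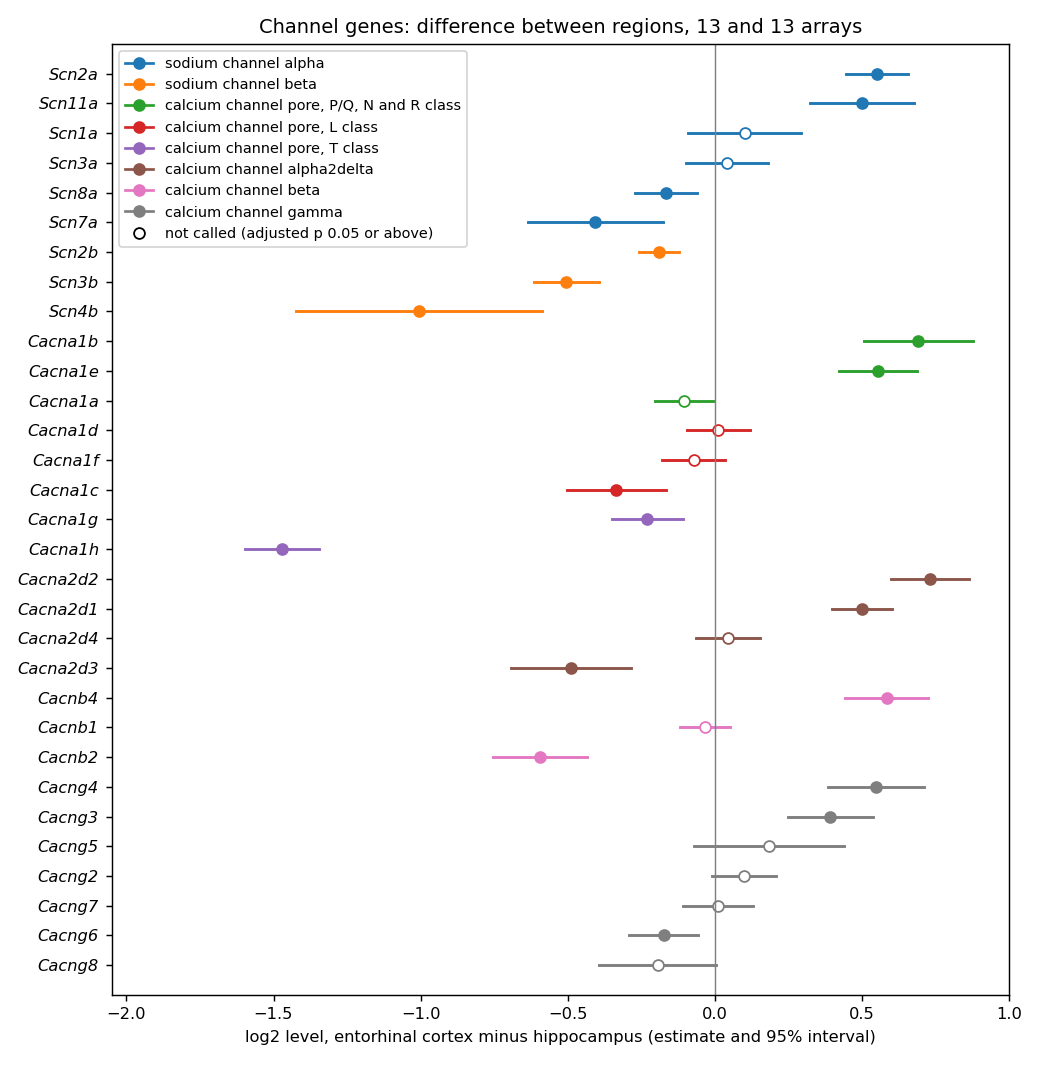
Difference in log2 level between entorhinal cortex and hippocampus for the 31 channel genes tested, grouped by role, with the estimate as a point and its 95% interval as a bar (13 arrays a region). Filled points passed an adjusted p of 0.05 in limma and open points did not. All 3 sodium channel beta subunits and both T-type pore genes lie to the left of 0, and Cacna1b and Cacna1e of the N and R classes lie to the right.

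Of 6 sodium channel alpha subunit genes tested, 2 were higher and 2 lower in entorhinal cortex. Scn2a, a main pore of excitatory axons, read 11.40 to 11.91 on the entorhinal arrays (median 11.79) and 10.98 to 11.42 on the hippocampal arrays (median 11.21). The ranges met only at entorhinal transgenic BDNF array 1 (11.40) and hippocampal non-transgenic GFP array 2 (11.42), and the difference was 0.55 ± 0.05 (adjusted p = 6.7e-09). Scn8a, the main pore of the mature axon initial segment, was lower by a smaller amount (−0.17 ± 0.05, adjusted p = 0.0077), at 10.32 to 10.73 against 10.55 to 11.00. Its other probe sets gave −0.13, −0.43, 0.018 and 0.13, of which 0.018 and 0.13 were not called. Scn1a, a pore that fast-spiking interneurons depend on, and Scn3a, which is most abundant before birth, differed by 0.10 ± 0.09 and 0.04 ± 0.07 and were not called. Scn11a, best known from sensory neurons, was higher in entorhinal cortex (0.50 ± 0.09), at 4.52 to 5.51 against 4.26 to 4.85 in hippocampus. Scn7a, which encodes a sodium-sensing channel of glia, was lower (−0.41 ± 0.11), at 4.47 to 5.51 against 5.09 to 6.05. Both of these last genes lay near the filter, and their ranges overlapped. Scn2a, Scn3a, Scn1a and Scn7a lie on chromosome 2, together with Scn9a, which did not pass the filter. On the probe sets used, these neighbours were higher, not called and lower. For Scn1a this depended on the probe set, since its others gave 0.53 and 0.56, both called as higher.

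All 3 sodium channel beta subunit genes tested were lower in entorhinal cortex, but only Scn3b stayed called with the mean of 7 oligodendrocyte markers as a covariate. With it Scn2b read −0.086 (adjusted p = 0.350) and Scn4b turned to 0.32 (adjusted p = 0.422). The marker means did not overlap between regions, so that fit extends a slope across the gap, and it called 4003 of all genes instead of 7746. A call lost or a direction turned in it does not decide whether a gene differs between the regions. Scn3b, whose product attaches to the pore without a covalent bond, read 10.65 to 11.12 on the entorhinal arrays (median 10.90) and 11.23 to 11.63 on the hippocampal arrays (median 11.44). The arrays did not overlap, and the difference was −0.51 ± 0.05 (adjusted p = 5.0e-08). Scn2b, which is bound to the pore by a disulfide bond, was lower by 0.19 ± 0.03, at 10.69 to 11.08 against 10.99 to 11.20. Its second probe set gave the opposite result, 0.25 ± 0.07 (adjusted p = 0.0103 among all probe sets), and the mean of its probe sets differed by 0.051.

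Scn4b, a beta subunit linked to resurgent sodium current, varied most among the entorhinal arrays. It read 4.81 to 7.09 there (median 5.66) and 6.33 to 7.34 in hippocampus (median 6.63). The entorhinal arrays at 6.79 and above were transgenic BDNF 1 and 2 and transgenic GFP 1, which overlapped the hippocampal range, and the other 10 lay at 5.82 or below. Its pooled SD within entorhinal groups was 0.71, the largest of the 31 genes in either region, where the median was 0.16 in entorhinal cortex and 0.14 in hippocampus. The difference between regions was −1.01 ± 0.20 (adjusted p = 0.00022), a 2.01-fold lower level. It was −0.68 and not called over the transgenic arrays alone (adjusted p = 0.0557), and its direction turned with the oligodendrocyte covariate, as given above. Within entorhinal cortex Scn4b rose with the oligodendrocyte markers by 0.98 ± 0.20 for each log2 unit.

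**Figure D2:**
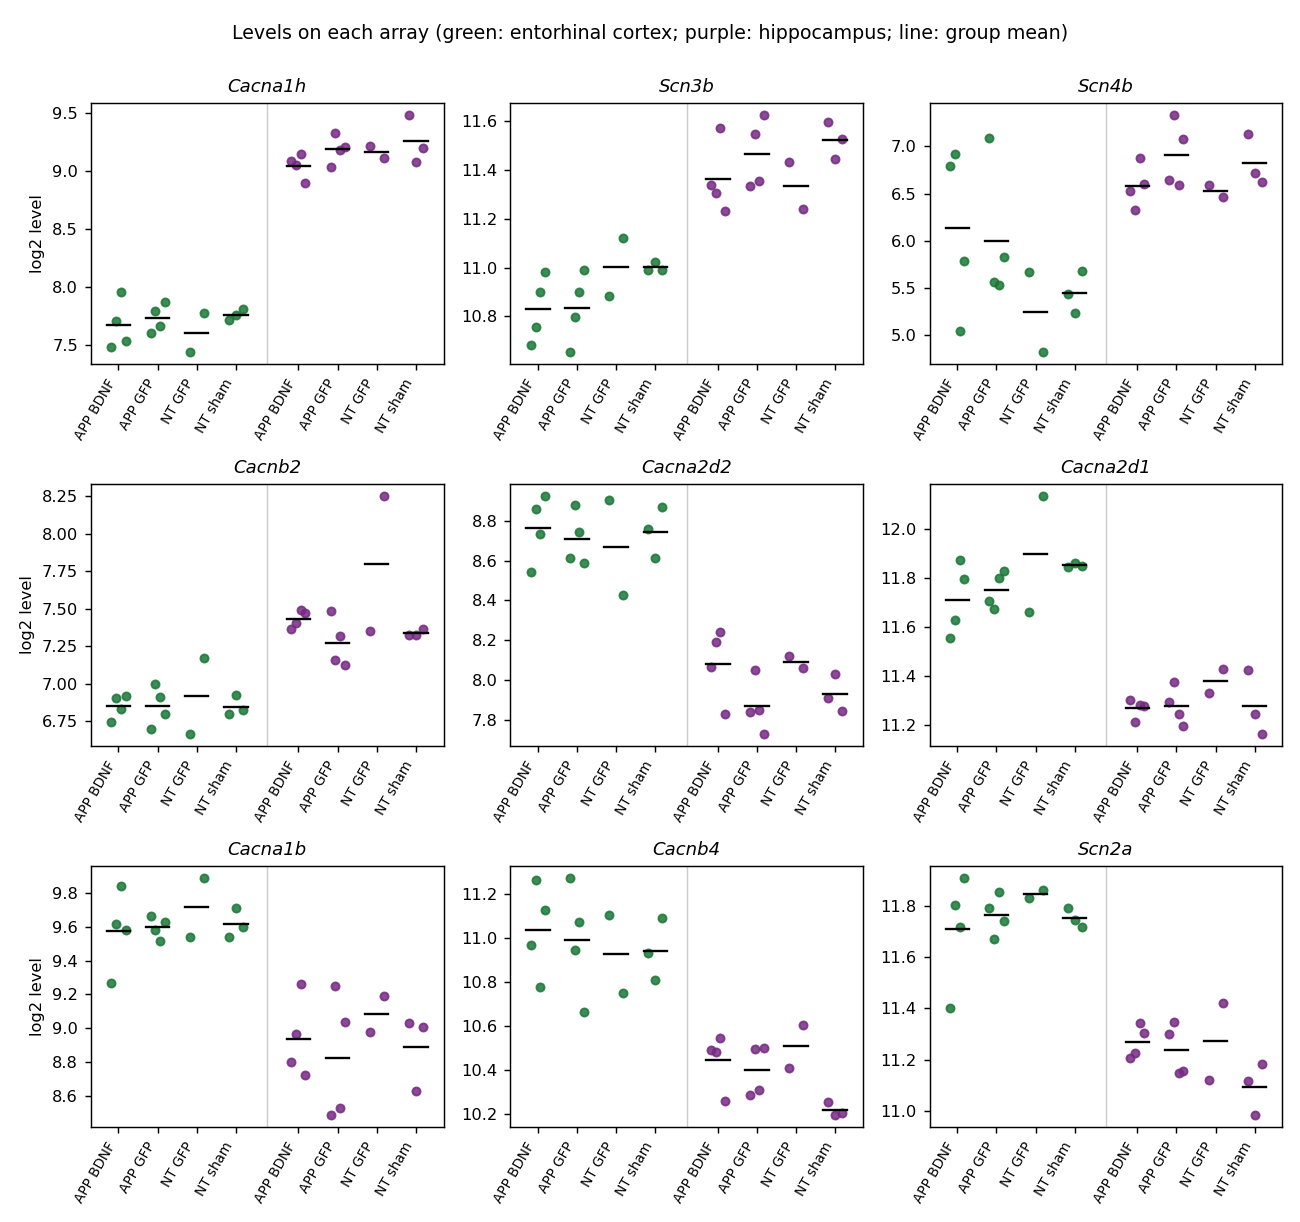
Log2 level on each array for 9 channel genes, with entorhinal arrays in green, hippocampal arrays in purple, 1 point an array and a line at the group mean (4, 4, 2 and 3 arrays for APP BDNF, APP GFP, NT GFP and NT sham, where NT is non-transgenic). Cacna1h reads at most 7.95 on the entorhinal arrays and at least 8.90 on the hippocampal arrays, whereas Scn4b reaches 7.09 on 1 entorhinal array.

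Among the 3 genes of the P/Q, N and R classes, the pores that drive most transmitter release, Cacna1b and Cacna1e were higher in entorhinal cortex. Cacna1b, the N-type pore, read 9.26 to 9.89 on the entorhinal arrays (median 9.60) and 8.49 to 9.26 on the hippocampal arrays (median 8.98). The highest hippocampal array lay just under the lowest entorhinal one, and the difference was 0.69 ± 0.09 (adjusted p = 1.1e-06). Cacna1e, the R-type pore, was higher by 0.55 ± 0.06, at 9.80 to 10.55 against 9.55 to 9.97. Neither stayed called with the oligodendrocyte covariate (0.46 and 0.25, adjusted p = 0.067 and 0.112), a fit with the limit given above. Other probe sets gave 0.48, 0.56 and −0.13 for Cacna1b and 0.10 for Cacna1e, of which −0.13 and 0.10 were not called. Cacna1a, the P/Q-type pore, read −0.11 ± 0.05 and was not called (adjusted p = 0.0742).

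Of the L-type pores, which couple calcium entry to gene expression, 1 of 3 tested was lower and 2 were not called. Cacna1c, the most abundant L-type pore of brain and heart, was lower in entorhinal cortex (−0.34 ± 0.08), at 7.04 to 8.12 against 7.77 to 8.09. Entorhinal non-transgenic GFP array 2 had its highest level of all 26 arrays. Cacna1d, which opens at lower voltages, and Cacna1f, the pore of photoreceptors, differed by 0.01 ± 0.05 and −0.07 ± 0.05.

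Both T-type pores tested were lower in entorhinal cortex. Cacna1h read 7.43 to 7.95 on the entorhinal arrays (median 7.71) and 8.90 to 9.48 on the hippocampal arrays (median 9.14). No array of 1 region came near the range of the other, and the difference of −1.47 ± 0.06 (adjusted p = 1.2e-14) was a 2.77-fold lower level. It stood at rank 41 by p among the 14941 genes. Cacna1g differed less, −0.23 ± 0.06 (adjusted p = 0.0022), and its arrays overlapped at 7.25 to 7.68 against 7.41 to 7.83. Cacna1g was not called with the oligodendrocyte covariate (−0.094, adjusted p = 0.607) or over the non-transgenic arrays alone (−0.26, adjusted p = 0.0557), whereas Cacna1h was. Within each kind of group the Cacna1h difference lay between −1.38 and −1.56.

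The α2δ subunits, which carry channels to the membrane and include the targets of gabapentin, differed in both directions. Cacna2d2 read 8.43 to 8.93 on the entorhinal arrays (median 8.75) and 7.73 to 8.24 on the hippocampal arrays (median 8.03), a difference of 0.73 ± 0.06 (adjusted p = 2.8e-09). Cacna2d1 read 11.55 to 12.13 in entorhinal cortex (median 11.80) and 11.17 to 11.43 in hippocampus (median 11.28), a difference of 0.50 ± 0.05 (adjusted p = 1.8e-08). Neither gene had an entorhinal array within the hippocampal range. Cacna2d3 was lower (−0.49 ± 0.10), with a wider entorhinal range of 9.37 to 10.69 against 10.32 to 10.65, and Cacna2d4, a subunit of the retina, differed by 0.04 ± 0.05.

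The cytoplasmic beta subunits, which bind the pore and bring it to the surface, were also split. Cacnb4 read 10.66 to 11.27 on the entorhinal arrays (median 10.97) and 10.19 to 10.60 on the hippocampal arrays (median 10.41), with no overlap and a difference of 0.58 ± 0.07 (adjusted p = 2.5e-07). Cacnb2 was lower by 0.59 ± 0.08, at 6.67 to 7.17 against 7.12 to 8.25 (median 6.83 and 7.36). The highest hippocampal value was that of non-transgenic GFP array 2, 8.25, where the other 12 hippocampal arrays lay at 7.49 or below. Cacnb1, first known from skeletal muscle, differed by −0.03 ± 0.04.

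Of 7 gamma subunit genes tested, 2 were higher, 1 was lower and 4 were not called. Cacng3 and Cacng4, both companions of AMPA receptors, were higher in entorhinal cortex by 0.39 ± 0.07 and 0.55 ± 0.08. Neither stayed called with the oligodendrocyte covariate (0.10 and 0.29, adjusted p = 0.599 and 0.187), a fit with the limit given above. The second probe set of Cacng4, at a mean of 7.74, gave −0.096 ± 0.059 and was not called. Cacng4 read 8.16 to 8.63 against 7.32 to 8.37, and Cacng3 read 8.39 to 8.95 against 8.01 to 8.65, so that both overlapped. Cacng6, a relative of the skeletal muscle subunit, was lower by 0.18 ± 0.06 at levels close to the filter (4.08 to 4.81 over both regions). Cacng2, or stargazin, the first known AMPA receptor companion, differed by 0.10 ± 0.05, Cacng5 by 0.18 ± 0.12, Cacng7 by 0.01 ± 0.06 and Cacng8 by −0.20 ± 0.10, of which none was called. Cacng8 was called with the mean of its probe sets (−0.24, adjusted p = 0.0057) and with array weights (−0.24, adjusted p = 0.0370). It was also called without entorhinal transgenic BDNF array 3 (−0.23, adjusted p = 0.0376), and read −0.28 without hippocampal non-transgenic GFP array 2. Cacng6 was not called without entorhinal non-transgenic GFP array 1 (−0.14, adjusted p = 0.0511).

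The 4 genes below the filter were Cacna1s, Cacng1, Scn9a and Scn10a. Cacna1s and Cacng1 belong to the channel of skeletal muscle, and Scn9a and Scn10a to sensory neurons. Cacna1s ranged from 3.62 to 4.66 over all arrays, Cacng1 from 3.27 to 3.72, Scn10a from 3.02 to 3.61 and Scn9a from 3.92 to 4.88. The deposited values carry no detection calls, so whether these transcripts were present is not known.

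Promoter sequence from RefSeq (build GRCm38.p6) was at hand for 27 of the 35 genes, in 37 windows of 300 bases, each running from 250 bases before a transcript's start to 50 bases after it. The windows of Cacna1b, Cacna2d1 and Cacna2d2 are shown because these genes were all higher in entorhinal cortex with no overlap of arrays, and because a search found the same letters in each. They were chosen after that search. G and C made up 72.3%, 80.0% and 75.7% of their bases, in that order, and the letters marked hold only G and C. Capitals mark the letters GGGCGG (a GC box) and GCGGGGGCG (a site form bound by EGR transcription factors) on either strand. A match to one can overlap the other, and all windows are written 5′ to 3′ on the strand of the gene.
Cacna1b, chr2:24763103-24763402, minus strand: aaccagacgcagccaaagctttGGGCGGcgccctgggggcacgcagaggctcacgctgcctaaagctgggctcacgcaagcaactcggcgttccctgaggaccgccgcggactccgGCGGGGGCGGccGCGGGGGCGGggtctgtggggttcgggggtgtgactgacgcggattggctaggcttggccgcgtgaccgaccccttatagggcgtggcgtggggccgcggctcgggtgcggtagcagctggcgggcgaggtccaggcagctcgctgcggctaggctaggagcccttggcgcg
Cacna2d1, chr5:15934441-15934740, plus strand: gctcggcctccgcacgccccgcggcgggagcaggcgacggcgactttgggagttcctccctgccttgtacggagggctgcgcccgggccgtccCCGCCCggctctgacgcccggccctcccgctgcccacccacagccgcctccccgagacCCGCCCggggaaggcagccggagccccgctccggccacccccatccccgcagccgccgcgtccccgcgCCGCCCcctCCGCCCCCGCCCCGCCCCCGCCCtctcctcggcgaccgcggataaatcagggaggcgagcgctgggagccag
Cacna2d2, chr9:107399630-107399929, plus strand: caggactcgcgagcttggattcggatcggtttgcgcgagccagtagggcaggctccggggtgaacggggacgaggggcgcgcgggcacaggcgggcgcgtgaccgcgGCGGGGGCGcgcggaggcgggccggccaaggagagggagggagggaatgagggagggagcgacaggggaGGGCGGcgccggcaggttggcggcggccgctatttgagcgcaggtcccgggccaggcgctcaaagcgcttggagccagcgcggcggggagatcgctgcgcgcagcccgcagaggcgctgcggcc
The EGR letters occurred in 4 of the 37 channel gene windows (the fourth was 1 of the windows of Scn8a, which was lower in entorhinal cortex) and in 2.91% of all 32851 promoter windows. A second EGR form searched, GCGTGGGCG, occurred in 1 of 37 (Scn7a, also lower there) and in 0.612% of all. The GC box letters occurred in 14 of 37 windows and in 35.7% of all windows. The full cyclic AMP response element TGACGTCA occurred in 0 of 37 and in 1.79% of all, and TATAAA in 2 of 37 and in 13.6%. The 3 windows of Cacnb4, which was higher to a similar degree, held no EGR letters. The share over all windows was not matched for G and C content. These matches describe the letters in a window only, and Cacna1h had no window.

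Other probe sets of the same genes gave a check on direction, since a probe set reads 1 part of a transcript. Of the 20 genes called, 13 had another probe set above the filter, 26 in all, and 20 of these pointed the same way, 17 of them called. Another 6 pointed the other way, of which only that of Scn2b described above was called. For Cacna2d1 the second probe set gave 1.66 ± 0.14 where the first gave 0.50, for Cacnb4 another gave 1.19 ± 0.13 where the first gave 0.58, and for Scn2a the second gave 0.98 ± 0.11 where the first gave 0.55. The second probe set of Cacna1h lay at a mean of 4.87, near the filter, and gave −0.35 ± 0.05. The other 7 called genes had 1 probe set above the filter, and Scn4b and Cacna2d3 were among them.

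Among the genes not called, 5 had another probe set that was. Scn1a gave 0.53 ± 0.12 and 0.56 ± 0.12 on its other probe sets against 0.10 on the first, and Cacna1a gave 0.46 ± 0.06 on its second against −0.11. Cacng2 gave 0.17 ± 0.05 and 0.46 ± 0.07, Cacng8 gave −0.29 ± 0.09 and Cacnb1 gave −0.52 ± 0.08 on another probe set. For these 5 genes the call depended on which probe set was read.

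**Figure D3:**
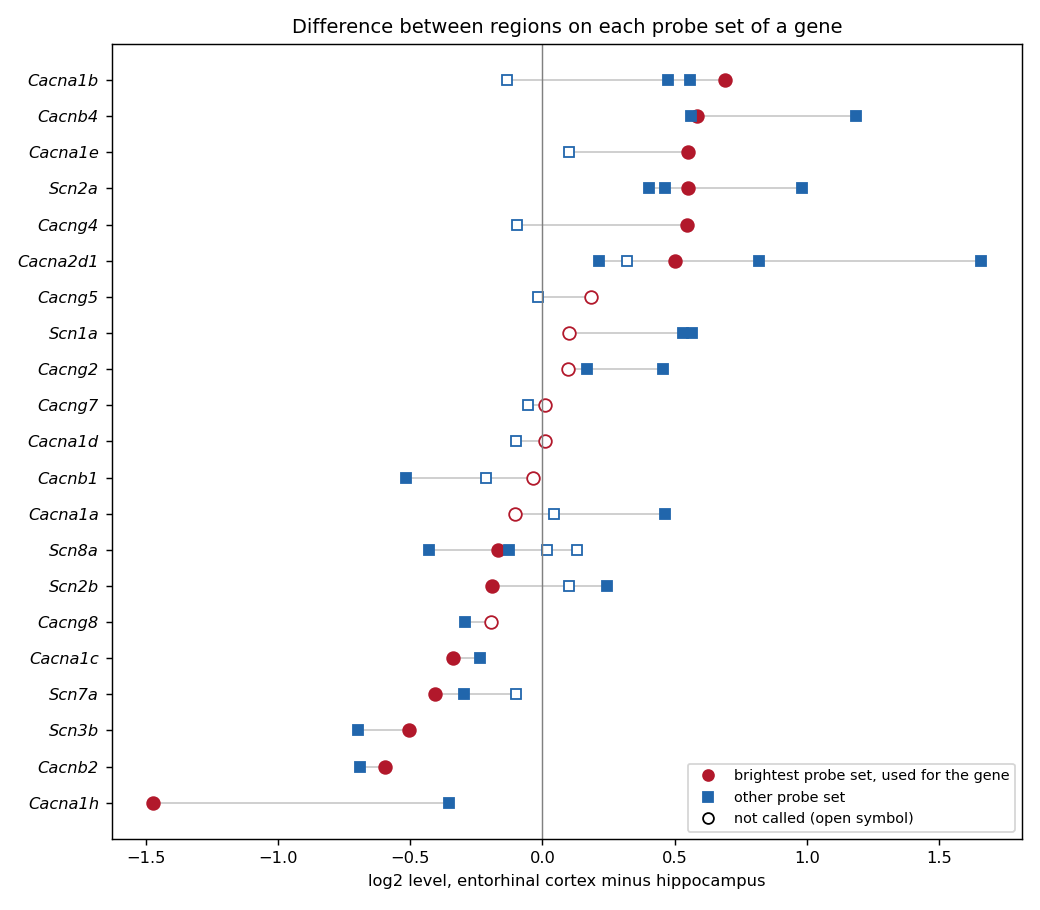
Log2 difference between entorhinal cortex and hippocampus on every probe set above the filter, for the 21 channel genes with more than 1 such probe set. Red circles are the brightest probe set, used for the gene, blue squares are the others, and open symbols did not pass an adjusted p of 0.05. Cacna2d1 runs from 0.21 to 1.66 over its probe sets, and those of Scn2b lie on both sides of 0.

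The region difference had the same sign in all 4 kinds of group for each of the 20 genes called. Tested within a kind of group, in the same limma fit, 13 of 31 channel genes were called in transgenic BDNF (29.3% of all genes), 12 in transgenic GFP (30.5%), 7 in non-transgenic GFP with 2 arrays a region (12.6%) and 15 in the sham group (29.3%). Over both non-transgenic kinds 16 were called (34.7% of all genes) and over both transgenic kinds 18 (44.3%). Of the 20 genes, those not called over the non-transgenic kinds were Cacna1c, Cacng6, Scn7a and Scn8a. Over the transgenic kinds they were Cacna2d3 (adjusted p = 0.0535) and Scn11a (adjusted p = 0.0569). Separate fits of 1 genotype alone lost a different set of genes, given at the end. A test of whether the difference varied among the 4 kinds called 0 channel genes and 0 of all genes, with 1 channel gene and 610 genes at an unadjusted p under 0.05.

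That 1 gene was Scn11a, with an unadjusted p of 0.0248 and an adjusted p of 0.99997. Its difference was 0.11 ± 0.15 in transgenic BDNF, 0.39 ± 0.15 in transgenic GFP, 0.67 ± 0.21 in non-transgenic GFP and 0.83 ± 0.17 in sham. For Scn4b the same values were −0.45 ± 0.35, −0.91 ± 0.35, −1.29 ± 0.49 and −1.38 ± 0.40, and for Cacna2d3 they were −0.25 ± 0.17, −0.34 ± 0.17, −0.63 ± 0.24 and −0.74 ± 0.20. None of these 3 genes passed the test of variation among the kinds of group after adjustment.

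The oligodendrocyte markers moved with several of the channel genes. A slope on the marker mean was fitted within each region with the groups kept as terms, a fit chosen after seeing the data. In entorhinal cortex 6 of 31 channel genes had a slope that was called, against 2.26% of all genes. Scn4b rose by 0.98 ± 0.20 and Cacna2d3 by 0.50 ± 0.10 for each log2 unit of the marker mean, and Cacna1c (−0.39 ± 0.08), Cacng3 (−0.26 ± 0.06), Cacna1h (−0.24 ± 0.05) and Cacng4 (−0.22 ± 0.05) fell. These calls rested on few arrays. Without transgenic BDNF array 3 no channel gene was called, against 0.194% of all genes. Without any 1 of the other 12 between 1 and 4 channel genes were called. Over all genes 1.12% to 2.44% were called in those fits, below the 2.26% of the full fit except without transgenic GFP array 4 (2.44%). The slopes were 0.85 to 1.11 for Scn4b and 0.46 to 0.58 for Cacna2d3 over the 13 fits that left out 1 array. Without both arrays low in the markers the Scn4b slope was 1.63 ± 0.46, the Cacna2d3 slope was 0.68 ± 0.26, and 0 channel genes and 0 of all genes were called. In hippocampus, where the marker mean spanned less, 0 channel genes and 0 of all genes were called, with 1513 genes at an unadjusted p under 0.05.

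With the marker mean as a covariate in the comparison of regions, also added after seeing the data, 11 channel genes were called instead of 20, 5 higher and 6 lower, and 4003 genes instead of 7746. Of the 11, 10 were among the 20, and Scn1a, higher in entorhinal cortex, was newly called. The ranges of the marker mean did not overlap between regions, so this fit extends a slope across the gap. A call lost or gained, or a direction turned, does not decide whether a gene differs between the regions. Cacna1h stayed lower (−1.73), as did Scn3b (−0.65), Cacnb2 (−0.87) and Cacna1c (−0.88), and Cacna2d2 (0.84), Cacnb4 (0.97), Scn2a (0.45) and Cacna2d1 (0.23) stayed higher. Scn4b and Cacna2d3 turned to 0.32 and 0.18, neither of them called. Cacna1b read 0.46 with an adjusted p of 0.067 and Cacna1e read 0.25 with an adjusted p of 0.112.

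**Figure D4:**
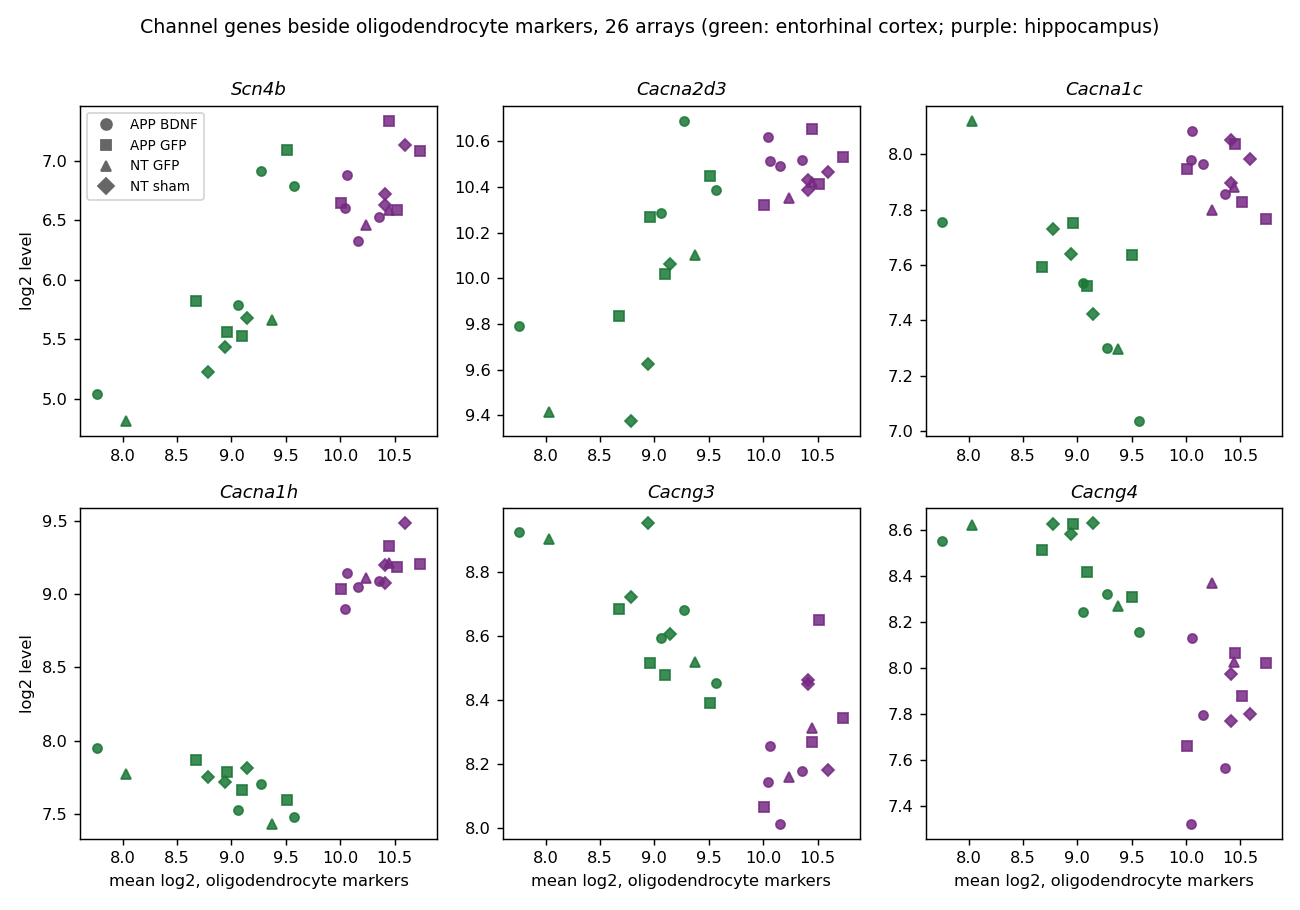
Log2 level of 6 channel genes against the mean log2 level of 7 oligodendrocyte markers, 1 point for each of 26 arrays, with entorhinal arrays in green, hippocampal arrays in purple and the kind of group by symbol. The 6 genes are those whose slope was called within entorhinal cortex. The entorhinal arrays with the lowest Scn4b, 4.81 and 5.04, have marker means of 8.03 and 7.76, and the marker means of the regions do not overlap.

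Genes of proteins that bind or act with these channels were listed as well. On the sodium channel and axon initial segment side, 14 of 18 listed genes were on the arrays and 13 passed the filter, of which 7 were higher and 5 lower in entorhinal cortex. On the calcium channel side 27 of 29 were on the arrays and 26 passed it, of which 8 were higher and 11 lower. Over all genes tested 51.8% were called, 20.6% as higher and 31.3% as lower. The largest rises were those of Stx1a, a syntaxin of the release machinery that binds N-type channels (1.10 ± 0.04), Fgf12, a cytoplasmic factor on the tail of sodium channels (0.99 ± 0.06), Akap5, which anchors kinases at L-type channels (0.88 ± 0.07), and Rims1, an active zone scaffold (0.52 ± 0.04). The largest falls were those of Rem2, a small GTPase that inhibits calcium channels (−2.30 ± 0.14), Stac2, an adaptor of L-type channels (−1.46 ± 0.10), Ryr1, a calcium release channel of internal stores (−1.46 ± 0.09), and Cabp1, a calmodulin-like regulator (−1.26 ± 0.16). None of the 39 was called in any of the 12 other comparisons, in which between 0.0% and 0.0535% of all genes were.

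The effect of BDNF on channel genes was read in transgenic mice against GFP. In entorhinal cortex, where the virus was given, limma called 0 of 31 channel genes and 0.0% of all genes, with 0 channel genes and 580 of all genes at an unadjusted p under 0.05. The differences ran from −0.24 to 0.27 with a median SE of 0.11, and the smallest adjusted p of a channel gene was 0.998. Cacng5 had the largest difference, 0.27 ± 0.16, followed by Scn11a at −0.24 ± 0.16 and, by p, Cacna1a at 0.12 ± 0.08. Cacng5 read 7.41, 7.24, 7.86 and 7.46 with BDNF and 6.80, 7.29, 7.52 and 7.29 with GFP, which overlapped. Groups did not overlap in 1 channel gene, Scn2b (10.99, 11.03, 11.01 and 11.08 against 10.99, 10.92, 10.87 and 10.94), and in 2.32% of all genes.

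In hippocampus, to which entorhinal neurons project, limma called 0 of 31 channel genes for BDNF against GFP and 0.0% of all genes, with 1 and 793 at an unadjusted p under 0.05. Scn4b had the largest difference, −0.33 ± 0.17, at 6.52, 6.33, 6.88 and 6.60 with BDNF and 6.64, 7.34, 6.59 and 7.08 with GFP. Cacna2d2 followed at 0.21 ± 0.09 (unadjusted p = 0.0417, adjusted p = 0.901), at 8.06, 8.19, 8.24 and 7.83 against 7.84, 8.05, 7.85 and 7.73. Both overlapped, as did all 31 genes, where 2.64% of all genes did not. Cacnb1, with the second smallest p, read −0.17 ± 0.08. No channel gene passed the test of whether the BDNF effect differed between regions (0 of 31 and 0.0% of all genes, with 0 and 602 at an unadjusted p under 0.05), the largest differences being 0.46 ± 0.49 for Scn4b and 0.36 ± 0.30 for Cacng5, and the smallest p those of Cacng3 (0.33 ± 0.17) and Cacna1c (−0.30 ± 0.20).

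The transgene was read in GFP-treated transgenic mice against all 5 non-transgenic arrays and against the 2 given GFP. These comparisons share the transgenic GFP arrays with each other and with the BDNF comparison. Xist was high on all non-transgenic arrays but on 2 of 4 in each transgenic group. Sex was therefore uneven between the genotypes, and its part cannot be fully told apart from that of the transgene. In entorhinal cortex 0 of 31 channel genes were called in either, where 0.0134% of all genes were called in each, and 0 channel genes had an unadjusted p under 0.05 against 711 and 373 of all genes. Scn4b had the largest difference, 0.64 ± 0.41 and 0.76 ± 0.53, at 7.09, 5.56, 5.53 and 5.82 in transgenic GFP, 5.66 and 4.81 in non-transgenic GFP and 5.44, 5.23 and 5.68 in sham. Only transgenic GFP array 1 and non-transgenic GFP array 2 stood outside a range of 5.23 to 5.82, and their oligodendrocyte means were 9.51 and 8.03. The arrays of these groups inside that range had means of 8.68 to 9.37, the highest being non-transgenic GFP array 1 with Scn4b at 5.66. Without transgenic GFP array 1 the Scn4b differences were 0.27 and 0.40, and with the oligodendrocyte covariate they were 0.44 and 0.41. Cacna2d3 followed at 0.43 ± 0.21 and 0.39 ± 0.27, and Cacng5 had the smallest p at −0.33 ± 0.15 and −0.31 ± 0.20. In the second comparison Scn3b had the next smallest p (−0.17 ± 0.11). The values against the 2 GFP arrays depended on which was kept: without array 2 and without array 1, Scn4b was 0.34 and 1.19, Cacna2d3 0.040 and 0.73, Cacng5 −0.16 and −0.46, and Scn3b −0.049 and −0.29. Against all non-transgenic arrays Cacng5 was −0.19 without transgenic GFP array 1. No channel gene was free of overlap against all non-transgenic arrays (2.31% of all genes), and 1, Cacna1g, was against the GFP arrays (10.2%).

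In hippocampus the same comparisons called 0 of 31 channel genes, where 0.0402% of all genes were called against all non-transgenic arrays and 0.00669% against those given GFP. At an unadjusted p under 0.05 stood 0 and 3 channel genes and 671 and 659 of all genes. Against all non-transgenic arrays Cacng8 read 0.27 ± 0.14, Cacnb2 −0.25 ± 0.14 and Cacnb1 0.16 ± 0.07, each with an adjusted p of 0.999. Against the 2 GFP arrays Cacnb2 read −0.53 ± 0.18, Scn4b 0.39 ± 0.21 and Cacnb1 0.25 ± 0.09, each with an adjusted p of 0.988. Cacnb2 read 7.48, 7.16, 7.32 and 7.12 in transgenic GFP and 7.35 and 8.25 in non-transgenic GFP, so its difference rested on 1 array, and without that array it was −0.08. No channel gene was free of overlap in the first comparison (0.917% of all genes) and 4 were in the second (8.23%): Cacna2d2, Cacna2d4, Cacnb1 and Scn4b. No channel gene passed the test of whether the transgene effect against all non-transgenic arrays differed between regions (0 of 31 and 0.0% of all genes, 1 and 301 at an unadjusted p under 0.05). Its largest values were 0.43 ± 0.47 for Scn4b and −0.38 ± 0.29 for Cacng5, and its smallest p those of Cacng6 (−0.28 ± 0.13) and Scn11a (−0.38 ± 0.20).

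Transgenic mice given BDNF were set against all non-transgenic arrays, which also served as controls for the transgene. Sex, as read from Xist, was uneven here in the same way. In entorhinal cortex 0 of 31 channel genes and 0.0402% of all genes were called, with 4 channel genes (12.9%) and 1966 of all genes (13.2%) at an unadjusted p under 0.05. Scn11a had the smallest p (−0.50 ± 0.15, adjusted p = 0.275). It read 4.85, 4.52, 4.84 and 4.76 with BDNF, 4.87 and 5.50 in non-transgenic GFP and 5.51, 5.17 and 5.16 in sham, a gap of 0.02 between the groups. Scn2b was next (0.19 ± 0.06, adjusted p = 0.293), at 10.99 to 11.08 against 10.69 to 10.95. The largest differences were those of Scn4b (0.77 ± 0.41) and Cacna2d3 (0.57 ± 0.21, adjusted p = 0.308). Scn4b read 6.79, 6.92, 5.04 and 5.79 with BDNF, and Cacna2d3 read 10.39, 10.69, 9.79 and 10.29, against 9.37 to 10.10 in non-transgenic tissue, so both overlapped. Scn11a, Scn2b and Cacna1a had no overlap, as did 4.59% of all genes.

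In hippocampus the same comparison called 0 of 31 channel genes and 0.0535% of all genes, with 0 and 986 at an unadjusted p under 0.05. Cacng4 read −0.28 ± 0.14, at 7.57, 7.80, 8.13 and 7.32 with BDNF against 7.77 to 8.37. Without transgenic BDNF array 4 it was −0.16 and without array 3 −0.43. Cacna1h read −0.17 ± 0.09, at 8.90 to 9.14 against 9.08 to 9.48. Without sham array 1, the array high in choroid plexus markers, Cacna1h was −0.10, and without sham array 2 −0.23. Both genes overlapped between the groups, and Cacna2d3 and Scn3a were the 2 channel genes that did not, where 3.02% of all genes did not. The smallest adjusted p of a channel gene was 0.781.

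The GFP virus was set against the sham in non-transgenic mice, with 2 and 3 arrays a region. In entorhinal cortex 0 of 31 channel genes and 0.0201% of all genes were called, with 0 and 441 at an unadjusted p under 0.05. Scn4b and Scn7a had the largest differences, −0.21 ± 0.56 and −0.21 ± 0.24, and Cacng6 and Cacng4 the smallest p, −0.17 ± 0.13 each. Each of these 4 values depended on which GFP array was kept. Without array 2 and without array 1, Scn4b was 0.22 and −0.64, Scn7a −0.42 and −0.0011, Cacng6 −0.29 and −0.045, and Cacng4 −0.34 and 0.0087. Groups of this size did not overlap in 3 channel genes (Cacna1f, Cacna2d4 and Scn2a) and in 19.2% of all genes.

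In hippocampus 0 of 31 channel genes and 0.0335% of all genes were called between GFP and sham, with 2 and 1344 at an unadjusted p under 0.05. Cacnb2 had the largest difference, 0.46 ± 0.19 (adjusted p = 0.514), which rested on the GFP array at 8.25 and was 0.01 without it. Without the other GFP array, which leaves 1 array in that group and takes its spread from the other groups, Cacnb2 was called, at 0.91 (adjusted p = 0.0327), and in the comparison with transgenic GFP at −0.98 (adjusted p = 0.0381). Cacnb4 had the smallest p (0.29 ± 0.10, adjusted p = 0.494), at 10.41 and 10.60 with GFP and 10.25, 10.19 and 10.20 in sham, and Cacng4 read 0.35 ± 0.20, at 8.03 and 8.37 against 7.80, 7.77 and 7.97. Neither of these overlapped, and in all 13 of 31 channel genes did not, where 29.0% of all genes did not.

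**Figure D5:**
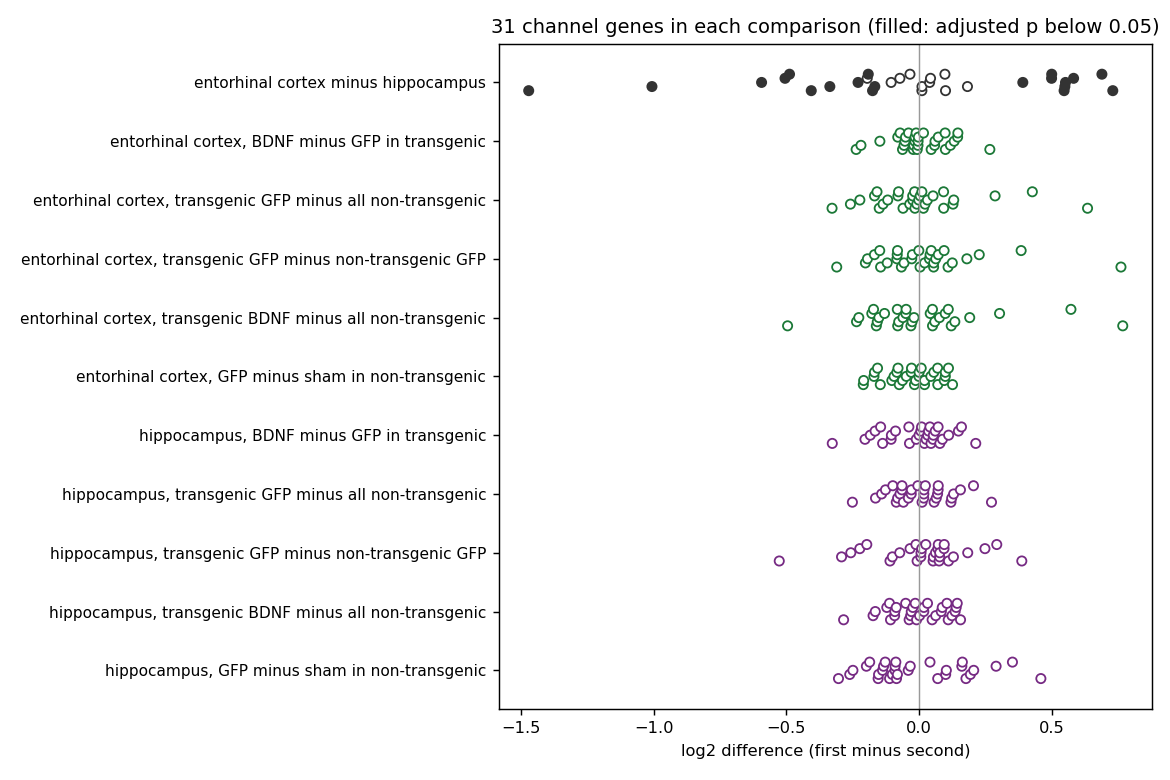
Log2 differences of the 31 channel genes in the comparison of regions and in the 10 comparisons within a region, 1 point a gene, filled where the adjusted p was under 0.05. The 20 filled points are all in the comparison of regions, which runs from −1.47 to 0.73. In the entorhinal rows the points furthest to the right, at 0.64 to 0.77, are Scn4b.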

How the data were processed

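Messenger RNA had been measured on 26 Affymetrix arrays, and the log2 values of 45101 probe sets deposited by the authors were made with RMA per the submitters' processing notes. The labels name no scan batch and tie no arrays to 1 animal. RMA gives all arrays nearly 1 distribution (array medians 5.51 to 5.58), so a shift shared by most genes is not visible, and differences of dim probe sets are compressed. The labels call replicates biological, and their number limits the precision.

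Genes were named from the platform annotation, updated by Entrez identifier to RefSeq names (34958 probe sets had 1 symbol, 932 several and 9211 none). Genes under the 30th percentile of probe set means were left out. Limma 3.58.1 in R 4.3.3 (lmFit, eBayes, 2-sided) was fitted over all genes with groups as terms, over 13 arrays within a region or all 26, with Benjamini-Hochberg adjustment and a threshold of 0.05. The fit was tested on simulated data. Non-transgenic groups were pooled at weights of 0.4 and 0.6.

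The members, lists and naming rule (all genes called between regions, otherwise the 2 largest differences and 2 smallest p, and 4 partners a direction) were chosen with earlier results of these data known. Some genes were named after seeing their values, for another probe set, a lack of overlap or a pattern over the groups. The alternatives were other filters, the mean of probe sets, renewed normalization or centring, other eBayes settings, array weights, the replicate number as a block, Xist as a covariate, only 1 genotype and each array left out. The oligodendrocyte covariate and slope, and leaving out the 3 arrays that stand apart, were added after seeing the data. Same-numbered arrays of the regions did not deviate together (r −0.49 to 0.48, over 0.1 in 3 of 13 pairs, of which the 2 of non-transgenic GFP mirror each other and are 1 value). The numbers were therefore not used as pairs. Both regions may come from the same mice, which would change the standard errors between regions.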

Additional observations from a re-analysis of the deposited data

Results flagged for a closer look

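In groups of 4 arrays, 3 of 124 sets of channel gene values held 1 array far from the other 3 by Dixon's criterion, where chance alone gives about 6.2. Cacng2 read 9.78 on the first entorhinal array from transgenic mice given GFP, where the other 3 of that group read 9.43 to 9.48. Cacng8 read 5.38 on the fourth array of that group, where the other 3 read 5.85 to 5.95. In hippocampus Cacng8 read 6.21 on transgenic BDNF array 4, against 5.83 to 5.86.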

How the results depend on the processing

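The count of channel genes called between regions was 20, and 17 to 22 under the planned settings with all arrays, 16 over non-transgenic and 18 over transgenic arrays alone, 19 to 21 without 1 array, 21 without the 3 arrays that stand apart and 11 with the oligodendrocyte covariate. For partner genes it was 31, with 22 to 33 under the alternatives. The replicate block gave 20 (9 higher and 11 lower) between regions and 0 in every other comparison. Direction turned for Scn2b as the mean of its probe sets (0.051), for Scn4b (0.32), Cacna2d3 (0.18) and Cacng5 (−0.064) between regions with the covariate, for Scn4b in entorhinal GFP against sham (0.22 without the 3 arrays, 0.040 with the covariate, and −0.64 without non-transgenic GFP array 1 to 0.22 without array 2 when 1 array was left out) and for Cacng4 there (−0.34 without array 2 to 0.0087 without array 1). The cause was not tested. Calls between regions were gained for Cacng8 with the mean of probe sets and with array weights, and for Scn1a with the covariate. They were lost with the covariate for Cacna1b, Cacna1e, Cacna1g, Cacng3, Cacng4, Scn11a, Scn2b and Scn8a. The non-transgenic arrays alone lost Cacna1c, Cacna1g, Cacng6 and Scn7a, and the transgenic arrays alone lost Scn4b (−0.68) and Scn8a. Cacng6 was lost with the mean of probe sets (−0.12) and without entorhinal non-transgenic GFP array 1 (−0.14). Within a region the count was 0 under every setting, except 1 (Cacnb2) without hippocampal non-transgenic GFP array 1, in transgenic GFP against non-transgenic GFP and in GFP against sham, a range of 0 to 1. Of the 40 differences named outside the comparison of regions, none of them called, 32 moved by over 1.5 times without some 1 array, and the 2 named above changed sign. Over all genes, counts in the comparisons within a region moved by over 1.5 times, as in transgenic BDNF against all non-transgenic entorhinal arrays (6, with 3 to 22) and hippocampal GFP against sham (5, with 2 to 21). Levels near the filter (Scn11a, Scn7a, Cacng6 and Cacna2d4) have no detection calls.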
